A study of Mus musculus with 2 samples.

Results

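The cells described here carried transcripts of Ace, Treml4 and Gngt2 in single-cell libraries from mouse fat, and they were proposed as nonclassical monocytes. They were selected by a rule on UMI counts (unique molecular identifiers, one per captured transcript). A barcode needed 500 genes or more, no more than 20% mitochondrial UMIs, at least 2 UMIs of Ace, Treml4 and Gngt2 together, and at least 1 UMI each of Lyz2 and Csf1r. It could hold at most 1 UMI of Ly6c2 and Chil3 together, at most 1 of the Cd3 genes and at most 1 of Cd79a and Cd79b. C1qa, C1qb and C1qc had to stay under 0.3% of its UMIs, and the stromal genes Dcn, Col3a1, Col1a2 and Lum under 1.5%. The rule took 110 of 14130 quality-filtered barcodes, 63 of 7344 from the chow library and 47 of 6786 from the high-fat library. Because these genes chose the cells, their levels are given as a description only.

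The stromal vascular fraction, which is adipose tissue freed of its adipocytes, was taken from the epididymal white fat of male C57BL/6J wild-type mice aged 18 weeks. Some mice had eaten normal chow (NCD) and others a high-fat diet (HFD) for 12 weeks, and each diet is represented by 1 droplet-based 10x library of 3′ tags. How many mice entered a library is not stated, so diet and library cannot be told apart and no test between diets was possible. All intervals below are 95% intervals that cover counting error only. The deposited tables held 33825653 NCD and 18623508 HFD UMIs, with a median of 4238 and 2023 UMIs per quality-filtered barcode. The selected cells held a median of 3673 NCD and 3211 HFD UMIs, and 345589 and 186954 UMIs in sum. The libraries shared 64 barcode sequences, 1 of them among the selected cells.

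Nonclassical monocytes are the patrolling branch of blood monocytes. In the mouse they arise from Ly6C-high classical monocytes under the orphan nuclear receptor Nr4a1, crawl along capillary walls through the integrin LFA-1 and the fractalkine receptor Cx3cr1, and take up debris of the vessel lining. In fat tissue they are known as a small vascular population beside the abundant tissue macrophages. Ace encodes the angiotensin-converting enzyme, Treml4 a receptor that binds dead cells, and Gngt2 the gamma subunit of a heterotrimeric G protein. Lyz2 (lysozyme) and Csf1r (the receptor for macrophage colony-stimulating factor) are shared by monocytes and macrophages.

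Gngt2 on chromosome 11 (95837216 to 95845734, plus strand, GRCm38) carried most of the selection. It had a UMI in 61 of 63 NCD and 45 of 47 HFD cells. Ace, also on chromosome 11 (105967945 to 105989964, plus strand), had a UMI in 28 NCD and 13 HFD cells. Treml4 on chromosome 17 (48264295 to 48275360, plus strand) had one in 13 NCD and 7 HFD cells. Gngt2 alone qualified 26 NCD and 31 HFD cells, and all 3 genes were seen together in 4 NCD and 3 HFD cells. The summed level of Gngt2 was 862 counts per 1000000 UMIs (CPM) in NCD and 899 CPM in HFD cells, against 50.8 and 131 CPM in stromal cells. Ace stood at 136 and 85.6 CPM in the selected cells, but stromal cells of the same libraries held it at 231 and 101 CPM. Treml4 stood at 60.8 and 53.5 CPM against 0.168 and 1.89 CPM in stromal cells. By summed level, Ace was thus no higher in the selected cells than in stromal cells. The comparison classes of macrophages and classical monocytes were limited to 1 UMI of the 3 genes, so their levels of these genes say nothing here.

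The share of cells with a UMI depends on depth, so it was also taken with every cell thinned to 1400 UMIs. Gngt2 was then seen in 63.5% of NCD (50.4 to 75.3) and 72.3% of HFD (57.4 to 84.4) cells, against 96.8% and 95.7% unthinned. In stromal cells, which should lack it, the thinned share was 6.94% and 16.7% (unthinned 17.3% and 25.8%), with median depths of 4863 and 2009 UMIs before thinning. Treml4 was seen in 11.1% (4.59 to 21.6) and 8.51% (2.37 to 20.4) of thinned cells, against 0 of 2393 NCD (up to 0.154%) and 0.264% of HFD stromal cells; unthinned it was seen in 20.6% and 14.9% of the selected cells. Ace was seen in 20.6% (11.5 to 32.7) and 21.3% (10.7 to 35.7), against 28.8% and 12.5% of stromal cells. Unthinned, Ace was seen in 44.4% and 27.7% of the selected cells. Stromal cells held Ace themselves, in 61.0% and 19.5% unthinned, so they give no background for this gene.

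The label was checked against 25 markers of nonclassical monocytes that the rule did not use. In summed UMIs, 17 of the 25 were at least 2-fold above C1q macrophages in NCD and 15 in HFD cells. These counts rest on levels alone, low ones included, and no share over all genes is given beside them. C1q macrophages passed the same steps but held at least 0.3% C1q UMIs and at most 1 UMI of the selecting genes. The markers above macrophages included Itgal, the alpha chain of LFA-1, at 142 NCD and 42.8 HFD CPM against 1.38 and 2.48 CPM in macrophages. Pglyrp1, a peptidoglycan recognition protein, stood at 179 and 69.5 CPM against 1.49 and 4.96 CPM. Cx3cr1 stood at 124 and 139 CPM against 21.9 and 16.7 CPM. Markers below macrophages included Klf2, a transcription factor of quiescent circulating leukocytes, at 932 and 621 CPM against 1200 and 746 CPM. Against classical monocytes, which held at least 2 UMIs of Ly6c2 and Chil3, 16 of the 25 were at least 2-fold higher in NCD and 11 in HFD, and 4 and 10 lay below the classical level. Itgal, Pglyrp1, Fcgr4 and Lst1 were among the 10 in HFD, where the classical sum rests on 5 cells. The counts against classical monocytes also rest on levels alone, without a share over all genes.

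The cells were mixed, and the data go only partly with the label. A set of 9 genes was taken from those 25 after their values were seen, namely Spn, Cd300e, Eno3, Itgal, Fcgr4, Adgre4, Pglyrp1, Pou2f2 and Cx3cr1. At least 3 of the 9 had a UMI in 28 of 63 NCD but only 8 of 47 HFD cells. None of the 9 was seen in 20 NCD and 18 HFD cells. A list of 15 stromal progenitor markers outside the rule reached 1% of UMIs in 9 NCD and 8 HFD cells, and no cell with 3 or more of the 9 was among them. A list of 7 endothelial markers reached 10 UMIs in 8 NCD cells, 3 of which also held 3 or more of the 9, and in no HFD cell. In addition, 1 NCD cell held 261 UMIs of the neutrophil genes S100a8 and S100a9, and it also held 4 of the 9. Another NCD cell held 104 UMIs of the plasma cell gene Jchain and 2 of the 9. The cells are therefore called Ace/Treml4/Gngt2 cells here, and those with 3 or more of the 9 genes marker-bearing cells.

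**Figure D1:**
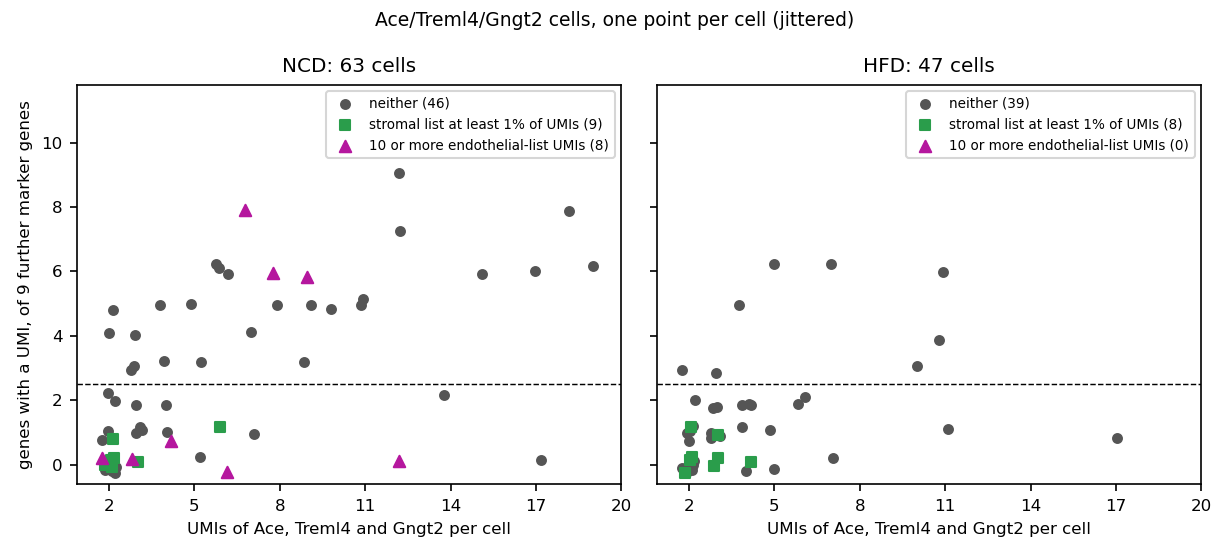
Each point is 1 Ace/Treml4/Gngt2 cell of the NCD (left) or HFD (right) library, with the UMIs of the 3 selecting genes on the x axis and the number of the 9 further genes with a UMI on the y axis, both jittered. Green squares are cells with 1% or more stromal-list UMIs (9 NCD, 8 HFD), magenta triangles cells with 10 or more endothelial-list UMIs (8 NCD, 0 HFD), and the dashed line separates the 28 NCD and 8 HFD cells with 3 or more of the 9 genes.

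Marker-bearing cells became more frequent with the number of selecting UMIs. Among cells just inside the threshold, with exactly 2 UMIs of Ace, Treml4 and Gngt2, 2 of 21 NCD cells and 1 of 19 HFD cells were marker-bearing. With 3 or 4 UMIs these were 5 of 14 and 2 of 16, and with 5 or more UMIs 21 of 28 and 5 of 12. Just outside the threshold, among barcodes with 1 UMI that passed every other step, 3 of 49 NCD and 1 of 58 HFD barcodes held 3 or more of the 9. The ceiling on Ly6c2 and Chil3 left out 13 barcodes in each library, of which 4 NCD and 5 HFD barcodes held 3 or more of the 9. The stepwise counts show where the selection narrowed. Of 1623 NCD and 841 HFD barcodes with 2 selecting UMIs, the demand for Lyz2 left 817 NCD and 737 HFD barcodes, that for Csf1r 181 and 237, and the C1q ceiling cut 165 and 222 barcodes to 85 and 63.

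The proximal promoters of the selecting genes and of a pair of the 9 are shown because the cells were defined by transcripts of these genes. Each window covers 300 bases, most of them upstream of the transcription start in RefSeq (GRCm38.p6), and is written 5′ to 3′ on the gene's strand. The windows are chr11:105967698-105967997 for Ace (the upstream of 2 entries), chr17:48264045-48264344 for Treml4, chr7:127137774-127138073 on the minus strand for Spn (leukosialin, CD43) and chr1:171018676-171018975 for Fcgr4 (an activating IgG receptor). Capitals mark GGGTGG, a core bound by Klf factors, or GAGGAAGT, a core bound by PU.1, on either strand; the Nr4a1 core AAAGGTCA was searched as well, and the motifs do not overlap one another in these windows.
Ace: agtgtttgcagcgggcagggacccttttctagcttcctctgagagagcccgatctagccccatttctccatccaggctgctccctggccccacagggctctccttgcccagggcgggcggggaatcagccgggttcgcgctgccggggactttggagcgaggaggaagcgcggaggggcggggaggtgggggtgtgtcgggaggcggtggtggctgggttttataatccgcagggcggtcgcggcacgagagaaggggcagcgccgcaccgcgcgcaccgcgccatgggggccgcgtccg
Treml4: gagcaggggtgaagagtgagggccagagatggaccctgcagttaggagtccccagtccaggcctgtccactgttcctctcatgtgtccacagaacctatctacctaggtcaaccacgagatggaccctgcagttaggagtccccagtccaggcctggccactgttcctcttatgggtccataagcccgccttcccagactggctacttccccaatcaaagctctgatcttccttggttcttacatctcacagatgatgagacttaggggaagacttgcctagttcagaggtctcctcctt
Spn: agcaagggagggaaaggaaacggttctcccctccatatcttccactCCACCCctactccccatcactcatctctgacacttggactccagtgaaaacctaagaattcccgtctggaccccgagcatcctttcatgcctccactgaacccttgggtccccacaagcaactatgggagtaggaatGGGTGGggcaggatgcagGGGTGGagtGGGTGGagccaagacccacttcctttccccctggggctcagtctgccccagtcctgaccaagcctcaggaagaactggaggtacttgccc
Fcgr4: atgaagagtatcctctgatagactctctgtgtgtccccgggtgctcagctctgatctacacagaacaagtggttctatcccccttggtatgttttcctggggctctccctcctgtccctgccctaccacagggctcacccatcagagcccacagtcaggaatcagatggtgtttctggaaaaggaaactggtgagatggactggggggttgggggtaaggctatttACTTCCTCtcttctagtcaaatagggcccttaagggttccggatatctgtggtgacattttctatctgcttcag
The Spn window held 4 matches to GGGTGG and the Fcgr4 window 1 match to GAGGAAGT on the opposite strand. The Treml4 window and the upstream Ace window held none of the 3 motifs. Adgre4 also held GAGGAAGT, and the second Ace entry, Eno3, Pou2f2 and Cx3cr1 held GGGTGG once each. Of 32851 promoters of the same length, 31.5% held GGGTGG, 3.20% GAGGAAGT and 1.51% AAAGGTCA, which none of these genes held. Gngt2 and Itgal were not matched in the promoter table.

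A few transcripts beyond the 9 genes are given here for marker-bearing cells as examples, not as support for the label. Lst1 and Cebpb are from the same 25 markers, of which Klf2 and Cd36 lay below macrophages in both libraries. S1pr5, the sphingosine-1-phosphate receptor through which nonclassical monocytes leave the bone marrow, was picked out here after its values were seen. All 7 of its NCD UMIs and all 5 of its HFD UMIs in Ace/Treml4/Gngt2 cells lay in marker-bearing cells, in 7 and 2 cells. None lay in the other 35 NCD and 39 HFD cells. The 2129 NCD macrophages held 0 UMIs of S1pr5 and the 764 HFD macrophages held 1, and the whole libraries held 18 and 12. Lst1, a leukocyte transcript of the MHC region, was seen in all 28 NCD and all 8 HFD marker-bearing cells, at 1309 and 1468 CPM. It stood at 299.6 and 619.6 CPM in the other Ace/Treml4/Gngt2 cells and at 303 and 240 CPM in macrophages. Cebpb, a transcription factor of the myeloid lineage, stood at 2769 and 1936 CPM in marker-bearing cells against 713 and 1394 CPM in the others. Stromal cells held Cebpb too: after thinning it was seen in 54.7% of NCD and 60.2% of HFD stromal cells. In all Ace/Treml4/Gngt2 cells these shares were 69.8% and 76.6%.

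Of the 25 markers, 22 in NCD and 19 in HFD were at least 2-fold above macrophages in the marker-bearing cells, and 2 and 5 lay below. Both counts above include all 9 genes that chose these cells, whose high levels follow from that choice. These counts, and those against classical monocytes below, rest on levels alone, low ones included, and no share over all genes is given beside them. Outside the 9, Cd300ld, Nr4a1, Hes1, Clec4a3, Dusp16, Cebpb, Lst1, Cd274, Bcl2 and Itga4 were at least 2-fold above in both libraries. Against classical monocytes the counts above were 19 and 14, again with genes of the 9 among them. In NCD 0 and in HFD 6 lay below, Nr4a1, Itgal and Fcgr4 among the 6. Nr4a1, the orphan receptor named above, stood at 497 NCD and 219 HFD CPM there, against 126 and 108 CPM in macrophages. Cd36, a fatty acid receptor, was below macrophages in both libraries, at 710.1 against 999.5 CPM and at 312 against 1549 CPM. The stromal list was low in these cells: the median of its genes stood at 2.51% of the library level in NCD and 6.96% in HFD, against 34.6% and 23.5% in all Ace/Treml4/Gngt2 cells and 6.96% and 23.5% in macrophages. Of 15 macrophage markers, 9 in NCD and 7 in HFD had a UMI in marker-bearing cells, and they summed to 4139 and 6869 CPM. Apolipoprotein E (Apoe) made up 3368 and 5839 CPM of these sums, and the mannose receptor Mrc1 stood at 20.3 and 62.5 CPM against 743 and 211 CPM in macrophages. The 14 classical monocyte markers summed to 5509 NCD and 2467 HFD CPM in marker-bearing cells, against 3830 and 2652 CPM in the other Ace/Treml4/Gngt2 cells. The neutrophil list summed to 2749 and 62.45 CPM in marker-bearing cells, which include the NCD cell rich in S100a8 and S100a9.

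**Figure D2:**
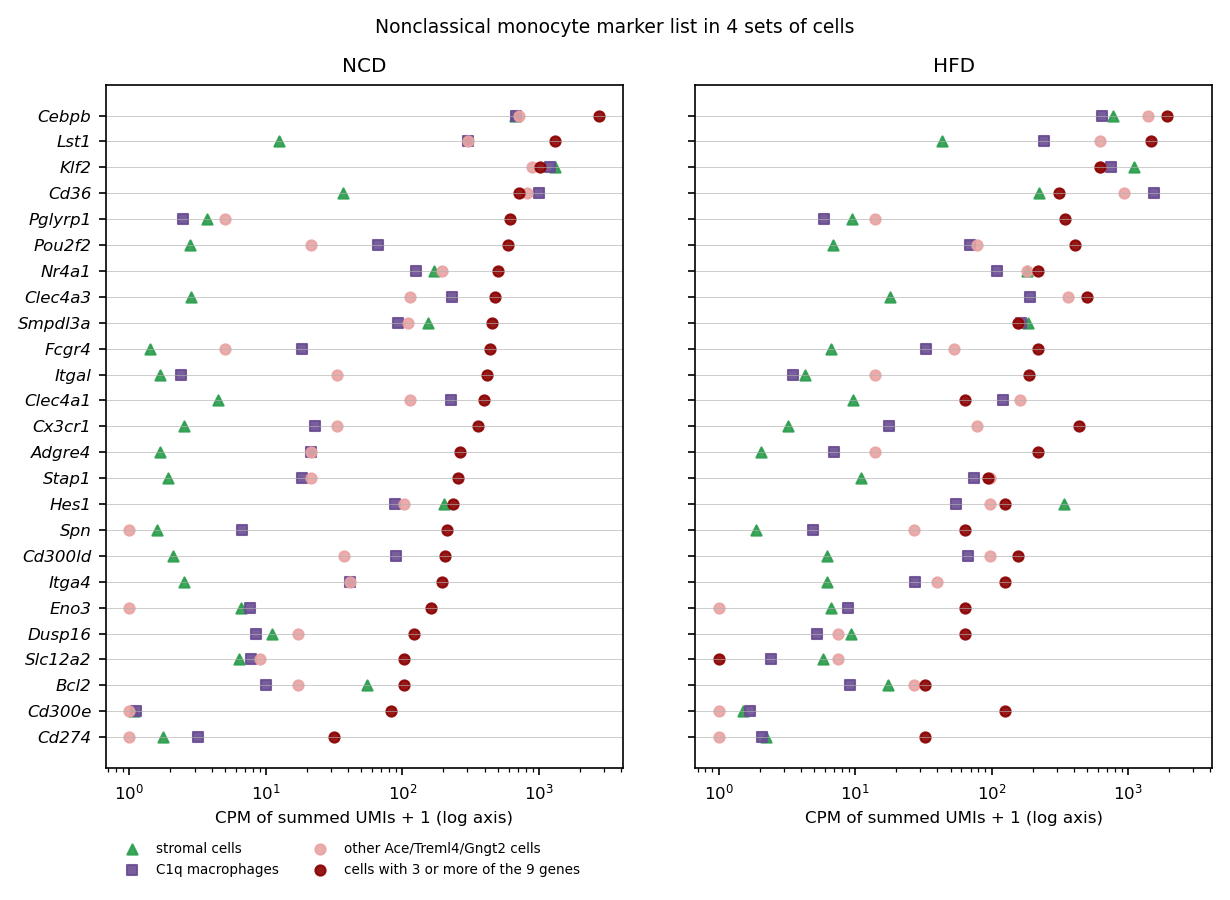
Summed levels of the 25 nonclassical monocyte markers (x axis, CPM + 1, log scale) in marker-bearing cells (dark red), other Ace/Treml4/Gngt2 cells (pale red), C1q macrophages (violet squares) and stromal cells (green triangles) of each library. Cells with 3 or more of the 9 genes lie to the right for most genes, which the choice of the cells fixes for those 9, while Klf2 lies higher in stromal cells than in either set of Ace/Treml4/Gngt2 cells in both libraries.

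MHC class II content also varied among the cells. The 4 genes H2-Aa, H2-Ab1, H2-Eb1 and Cd74, which present antigen to helper T cells, made up a median of 1.76% of UMIs in NCD cells and 2.44% in HFD cells. They exceeded 5% in 12 NCD and 9 HFD cells and stayed under 1% in 26 and 16 cells. Of the marker-bearing cells, 14 of 28 NCD and 5 of 8 HFD cells were under 1%, and 4 and 1 were at 5% or more. The dendritic cell lectin Cd209a reached 10 UMIs in 2 NCD cells, 1 of them a marker-bearing cell with 20 UMIs of it.

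As a share of quality-filtered barcodes, Ace/Treml4/Gngt2 cells made up 0.858% in NCD (0.660 to 1.10) and 0.693% in HFD (0.509 to 0.920). The HFD to NCD ratio of 0.807 had an interval of 0.541 to 1.197, so counting error alone spans equality. When the rule was applied after thinning every barcode to 1400 UMIs it took 19 NCD and 20 HFD cells, a ratio of 1.14 (0.577 to 2.26). Marker-bearing cells made up 0.381% of NCD barcodes (0.254 to 0.551) and 0.118% of HFD barcodes (0.0509 to 0.232), a ratio of 0.309 (0.122 to 0.696). After every selected cell was thinned to 1400 UMIs, 3 or more of the 9 were seen in 19 of 63 NCD and 4 of 47 HFD cells, a ratio of shares of 0.282 (0.0698 to 0.849). That ratio is over selected cells, which were chosen at full depth, so it is no depth check of the share of barcodes. These shares rest on genes chosen after their values were seen and on 1 library per diet. Ly6c2 classical monocytes, taken by the same steps with at least 2 UMIs of Ly6c2 and Chil3 and at most 1 of the 3 selecting genes, numbered 18 NCD and 5 HFD cells. There were 3.5 Ace/Treml4/Gngt2 cells per classical monocyte in NCD and 9.4 in HFD. For marker-bearing cells these were 1.56 and 1.6.

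**Figure D3:**
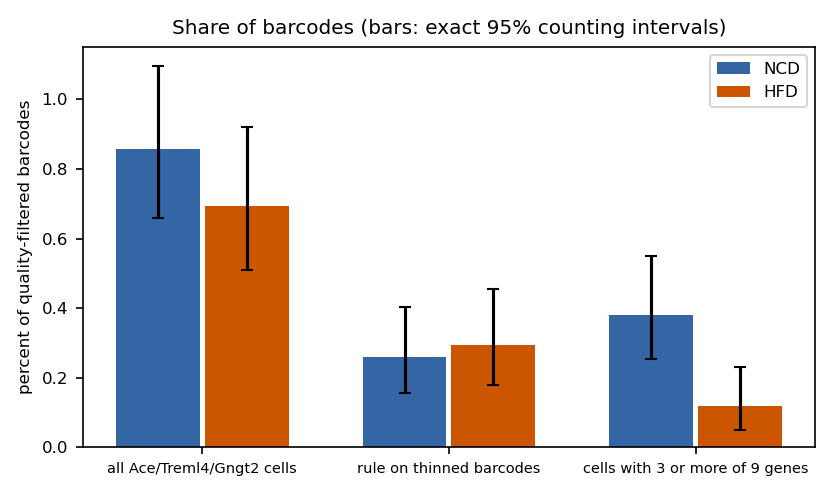
Bars give the share of quality-filtered barcodes (y axis, percent) in the NCD and HFD libraries for all Ace/Treml4/Gngt2 cells, for the rule applied to barcodes thinned to 1400 UMIs, and for cells with 3 or more of the 9 genes; error bars are exact 95% counting intervals. The intervals overlap for the first and second pair, at 0.858% and 0.693% and at 0.259% and 0.295%, and not for the last, at 0.381% and 0.118%.

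Classical monocytes, the nearest class, were compared first. A gene was called different when the ratio of summed CPM was at least 2 either way and its interval excluded 1. Against classical monocytes, 164 of 2618 genes were called higher (6.26%) and 166 lower (6.34%) in NCD. In HFD, with only 5 classical cells, 39 of 2516 were called higher (1.55%) and 115 lower (4.57%). In both libraries 7 genes were higher and 17 lower. Plac8, a myeloid transcript, was 2.52-fold and 2.43-fold lower, at 1010 against 2543 CPM and 1097 against 2659 CPM. NCD marker-bearing cells stood close to the classical level, at 2587 CPM, and the other NCD cells at 381 CPM. The protease inhibitor Slpi (5.32-fold and 10.5-fold), Ms4a4c (4.58-fold and 4.73-fold) and the C-type lectin Clec4e (3.45-fold and 3.80-fold) were lower as well. Coagulation factor F13a1 was 4.21-fold lower in NCD (127 against 536 CPM) and had 3 UMIs in either HFD class.

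The 7 genes higher than in classical monocytes were Timp2, Cd9, Cd63, Cyb5a, H2-Eb1, Cd36 and Ear2. Timp2, an inhibitor of metalloproteinases, stood at 590.3 against 34.2 CPM in NCD, 17.3-fold (5.82 to 84.4), and at 551 against 94.96 CPM in HFD, 5.80-fold (1.57 to 48.6). The classical sums held only 3 and 2 of its UMIs. The tetraspanin Cd9 was 4.91-fold (2.19 to 13.6) and 10.6-fold (1.86 to 423) higher, and Cd36 2.04-fold (1.42 to 3.003) and 17.5-fold (3.09 to 694), each against 1 UMI in HFD classical cells. Stromal cells of the same libraries held Cd9 at 652 and 836 CPM and the tetraspanin Cd63 at 1996 and 2232 CPM, above the 336 and 503 CPM of Cd9 and the 368 and 1246 CPM of Cd63 in Ace/Treml4/Gngt2 cells. In marker-bearing cells Cd63 stood at 60.9 and 344 CPM, and the part of stromal transcripts in these ratios was not tested. H2-Eb1 was 2.08-fold and 7.55-fold higher. Ear2, a ribonuclease of eosinophils and monocytes, was 5.02-fold higher in NCD and at least 2.03-fold higher in HFD, where classical cells held none (floor of 3 UMIs over the group).

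Against C1q macrophages, 233 of 2515 genes were called higher (9.26%) and 203 lower (8.07%) in NCD, and 101 of 2315 (4.36%) and 116 (5.01%) in HFD. In both libraries 26 genes were higher and 47 lower. Plac8 was 210-fold higher in NCD (1010 against 4.82 CPM) and 22.8-fold higher in HFD (1097 against 48.2 CPM). Stromal cells held it at 49.0 and 191 CPM. The Src-family kinase Fgr was 10.8-fold and 22.1-fold higher, haptoglobin (Hp) 18.4-fold and 9.96-fold, the aspartic protease Napsa 18.9-fold and 9.35-fold, and interleukin 1 beta (Il1b) 13.1-fold and 5.27-fold. The survival gene Bcl2a1d was 3.71-fold and 3.59-fold higher. The lower genes named by the rule were mostly transcripts known from resident macrophages, and the C1q threshold itself separates the classes. The chemokine Ccl8 was 75.8-fold (34.8 to 207) and 59.7-fold (16.5 to 493.5) lower, with 6 NCD and 2 HFD UMIs in the selected cells. The folate receptor Folr2 was 38.5-fold (22.5 to 72.3) and 43.2-fold (14.8 to 209.5) lower, and platelet factor Pf4 14.9-fold and 7.18-fold. The hyaluronan receptor Lyve1 was 12.5-fold lower in NCD, at 57.9 against 721 CPM, and at least 6.58-fold lower in HFD, where Ace/Treml4/Gngt2 cells held 0 UMIs.

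Between diets, 130 of 2473 genes were called higher (5.26%) and 190 lower (7.68%) in HFD than in NCD cells, with a median log2 ratio of −0.06 over all genes. Galectin-3 (Lgals3), a lectin of phagocytes, went from 958 to 4584 CPM, 4.79-fold (4.21 to 5.45), but 1 HFD cell held 298 of its 857 HFD UMIs. Without that cell Lgals3 stood at 3205 CPM, 3.35-fold above NCD. The protease cathepsin B (Ctsb) went from 729 to 2257 CPM, 3.10-fold (2.64 to 3.63), and was seen in 55 NCD and 45 HFD cells. Rgs1, which shortens G protein signalling, went from 43.4 to 497 CPM, 11.5-fold (6.60 to 21.3). The macrophage elastase Mmp12 went from 17.4 to 658 CPM, and 1 HFD cell held 61 of its 123 UMIs. Without that cell Mmp12 stood at 358 CPM, 20.6-fold above NCD. The lysosomal protease legumain (Lgmn), 3.92-fold, the lysosomal glycoprotein Creg1, 3.64-fold, the peroxidase Prdx1, 3.56-fold, and the inhibitory lectin Clec12a, 4.31-fold, were higher as well. For Prdx1, 1 HFD cell held 315 of 835 HFD UMIs, and the ratio without that cell was 2.39.

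The same genes were higher in the whole HFD library. Over all quality-filtered barcodes Lgals3 was 5.36-fold higher in HFD, Mmp12 34.2-fold, Rgs1 8.28-fold and Ctsb 2.38-fold. Stromal cells moved alike, with Lgals3 going from 147 to 494 CPM and Ctsb from 481 to 979 CPM. So did C1q macrophages, with Lgals3 going from 550 to 4232 CPM and Ctsb from 2142 to 4201 CPM. Rgs1 went from 57.7 to 637 CPM and Mmp12 from 14.3 to 474 CPM in these macrophages. In marker-bearing cells, which held less stromal-list RNA, Lgals3 stood at 1370 NCD and 3372 HFD CPM and Ctsb at 842 and 2373 CPM. All 12 had a ratio above 1 there, but only 6 had 20 or more UMIs over both libraries. Free RNA was set from the median stromal-list level of all Ace/Treml4/Gngt2 cells, 34.6% of the library level in NCD and 23.5% in HFD. That level includes the cells with 1% or more stromal-list UMIs, and it was 2.51% and 6.96% in marker-bearing cells. It is thus no measure of free RNA alone. With this part subtracted, Lgals3 had a log2 ratio of 2.12 and Ctsb one of 1.87. When the rule was applied to barcodes thinned to 1400 UMIs, 13 of the 24 named genes were no longer called, with Ctsb at 0.30, Lgals3 at 0.67 and Prdx1 at −0.72, while Mmp12 and Rgs1 were still called at 1.94 and 1.60. Of the 24, 4 were no longer called when a UMI of Ace or Treml4 was needed, Mmp12 and Lgals3 among them, and 12 in marker-bearing cells, Mmp12 and Rgs1 among them.

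Most of the named lower genes are known from endothelium. Fabp4, the lipid chaperone of capillary endothelium and adipocytes, went from 6036 to 492 CPM, 12.3-fold lower (9.95 to 15.3). Gpihbp1, which anchors lipoprotein lipase on capillaries, went from 472 to 5.35 CPM with 163 NCD UMIs and 1 HFD UMI. The junction protein Cldn5 had 134 NCD and 0 HFD UMIs, at least 24.2-fold lower. Timp3 (437 to 16.1 CPM), the water channel Aqp1 (339 to 16.1 CPM), caveolin Cav1 (249 to 10.7 CPM) and Rbp7 (243 to 5.35 CPM) were lower too. All 6 measured genes of the endothelial list were called lower, and the list summed to 1241 CPM in NCD and 32.1 CPM in HFD. When cells with 1% stromal or 10 endothelial UMIs were left out, 11 of the 12 named lower genes were no longer called, 7 of them with too few UMIs for a value, and Fabp4 had a log2 ratio of −0.27. That filter uses an endothelial list that holds Cldn5 and Gpihbp1, so the loss of the calls of this pair follows from the filter. The other lost genes are on neither list of the filter. All 8 cells over the endothelial limit were NCD cells, and why the other calls were lost was not tested. The monocyte attractant Ccl2 went from 567 to 48.1 CPM, with 146 of its 196 NCD UMIs in 1 cell. Without that cell it stood at 151 CPM, 3.14-fold above HFD. Fcrls, an Fc receptor-like gene of macrophages, had 57 NCD UMIs in 13 cells and 0 HFD UMIs. Fcrls was still called when cells with 1% stromal or 10 endothelial UMIs were left out, but not in marker-bearing cells or without possible doublets.

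**Figure D4:**
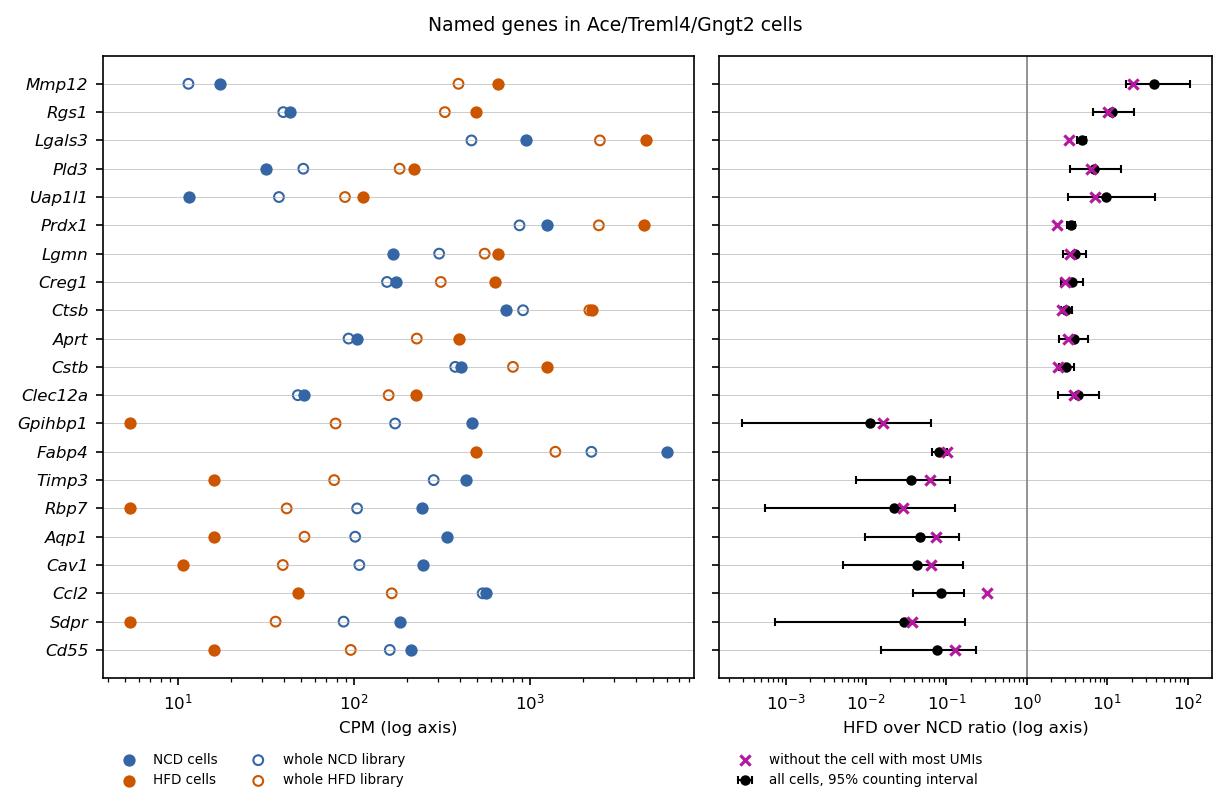
Left, summed CPM (log scale) of the named genes in Ace/Treml4/Gngt2 cells (filled) and in the whole library (open) for NCD (blue) and HFD (orange); right, the HFD to NCD ratio (log scale) with its 95% counting interval, and the ratio without the cell that holds most UMIs of the gene in the higher library (crosses). The 3 genes with 0 HFD UMIs (Cldn5, Fcrls, Tinagl1) are not drawn, and the whole library moves in the same direction for every gene shown.

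The gene lists place these genes by function. Of 21 measured lysosomal genes 9 were called higher and 0 lower, with a median log2 ratio of 0.72 against −0.06 over all genes. They were Ctsb, Ctsd (446 to 1155 CPM), Ctss (1007 to 2343 CPM), Lgmn, Gusb, the acid lipase Lipa (72.3 to 278 CPM), Cd63, Cd68 and Grn. Of 17 measured lipid handling genes 7 were called higher and 2 lower, with a median of 0.58. The lipid droplet coat Plin2 went from 356 to 958 CPM, lipoprotein lipase (Lpl) from 298 to 1364 CPM, and the cholesterol exporter Abcg1 from 37.6 to 128 CPM, while Fabp4 and Angptl4 (145 to 64.2 CPM) were lower. Of 10 measured macrophage markers 4 were called higher and 2 lower, with a median of 0.52 that turned to −0.51 when a UMI of Ace or Treml4 was needed and to −0.18 without possible doublets. Trem2, a lipid-sensing receptor of adipose macrophages, went from 37.6 to 455 CPM, Ms4a7 from 23.2 to 134 CPM and Apoe from 2460 to 5798 CPM, whereas Cd163 (60.8 to 5.35 CPM) and Lyve1 were lower. The Trem2 level in HFD cells lay below the 531 CPM of the whole HFD library.

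Among markers of the label, 0 of 19 measured genes were called higher and 2 lower, with a median of −0.45. The 2 were Itgal (142 to 42.8 CPM) and Pglyrp1 (179 to 69.5 CPM). Over all genes compared, 7.68% were called lower. The list median was 0.05 when a UMI of Ace or Treml4 was needed. Itgal and Pglyrp1 helped to choose the marker-bearing cells, which were 28 of 63 NCD but 8 of 47 HFD cells. Within marker-bearing cells neither gene was called. There 4 of 24 measured markers were called lower, Nr4a1, Cd36, Clec4a1 and Smpdl3a. Whether the mix of cells set the calls of Itgal and Pglyrp1 was not tested. Over all Ace/Treml4/Gngt2 cells, Nr4a1 had 97 NCD and 35 HFD UMIs, a ratio of 0.667 (0.440 to 0.991), which is under 2-fold. Cx3cr1 had a ratio of 1.12 (0.659 to 1.86) and Cebpb one of 1.14 (0.982 to 1.33). Of 12 classical markers 4 were called lower, among them fibronectin (Fn1, 1534 to 358 CPM), which stromal cells also express, and F13a1. Among 10 survival genes 0 were higher and 4 lower: Mcl1 (440 to 214 CPM), the cytokine receptor chain Csf2rb (119 to 32.1 CPM), Birc3 and Xiap. Of 10 interferon-response genes 1 was higher, Oas1a, and 3 lower, Isg15, Bst2 and Trim30a. Of 22 immediate early and heat shock genes 1 was higher, Atf3 (194 to 396 CPM), and 2 lower, Egr1 (741 to 246 CPM) and Ier2 (590 to 294 CPM).

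**Figure D5:**
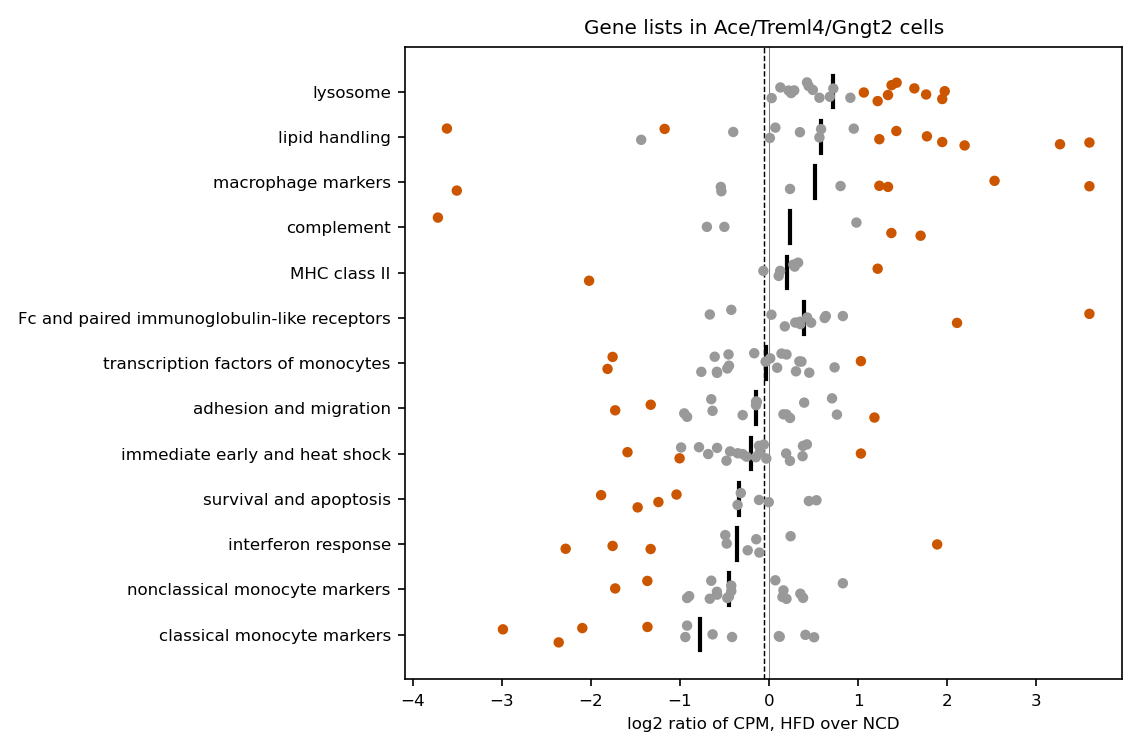
Each point is 1 gene of a list with at least 50 CPM in either library and a UMI in both, placed by its log2 ratio of HFD over NCD CPM in Ace/Treml4/Gngt2 cells (x axis); orange points are called at 2-fold with an interval without 1, black ticks are list medians and the dashed line is the median of all genes tested. The lysosome and lipid handling medians of 0.72 and 0.58 lie to the right, and the nonclassical monocyte median of −0.45 to the left.

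Other lists had few called genes. Of 8 measured MHC class II genes 1 was called higher (Ctss) and 1 lower (H2-DMb2), and H2-Aa had a ratio of 1.25 (1.15 to 1.36). Of 14 Fc and paired receptors 2 were higher (Clec12a and Trem2), and of 15 G protein genes 2 were higher (Rgs1 and Rgs2). Of 18 adhesion genes 1 was higher, the chemokine receptor Cxcr4 (63.7 to 144 CPM), and 3 lower, Itgal, Itgb1 and Pecam1, the last with 0 HFD UMIs. The 3 measured mast cell protease genes Cpa3, Mcpt4 and Cma1 were called higher, at 74.9, 90.9 and 123 CPM in HFD cells. The mast cell list summed to 289 CPM in the HFD cells and to 365 CPM over the whole HFD library. Jchain stood at 318 NCD and 26.7 HFD CPM, with 104 of its 110 NCD UMIs in 1 cell.

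Within marker-bearing cells, 170 of 2645 genes were called higher (6.43%) and 56 lower (2.12%) in the 8 HFD than in the 28 NCD cells, with a median log2 ratio of 0.18. Of 22 lysosomal genes 8 were higher and 0 lower, and Ctsd had 16 NCD and 45 HFD UMIs although the HFD cells held 32026 UMIs against 98574. Trem2 had 0 NCD and 10 HFD UMIs there. All 8 measured cell cycle genes were called higher, with a median of 2.59, but 1 HFD cell held 11666 of the 32026 UMIs. Without the deepest cell of each library, 5 of 7 measured cell cycle genes were called with a median of 1.41. The histone gene H2afz had 136 HFD UMIs with that cell and 46 without it, against 89 and 80 in NCD. The proliferation marker Mki67 had 4 HFD UMIs, all in that cell, and 1 NCD UMI. In the same setting 4 of 21 lysosomal genes (Ctsb, Ctsd, Gusb and Lipa) were called higher with a median of 0.50, and Trem2 kept 3 UMIs. Plac8 was lower in the HFD marker-bearing cells, at 812 against 2587 CPM, while in the other cells it stood at 1155 against 381 CPM.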

How the data were processed

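UMI counts per gene and barcode were used as deposited by the authors. Cell Ranger, Seurat and the mm10 build (GRCm38) are named, per the submitters' processing notes; their versions are not given in the sources used here. Each table had 27998 genes, of which 56 symbols had several identifiers and were not merged. The members, the 9-gene set and the gene lists were chosen with earlier results of these data known. Of the listed genes, 5 were not matched by symbol.

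Counts were summed over cells per library and given as CPM (per 1000000 UMIs). Because each diet has 1 library, nothing was tested between diets. Intervals at 95% were Clopper-Pearson for shares, exact Poisson for levels and exact conditional binomial for ratios. Ratios against 0 UMIs used 3 UMIs and are bounds. Genes with a mean of at least 50 CPM over both sides were compared, without the genes of the rule; list genes needed 50 CPM in either library. Up to 12 genes each way were named between diets, with at least 100 CPM and a UMI in at least 10% of cells in the higher library and a level at or above that library's. They were ranked by the interval end nearest to 1. Genes against the other classes were named if called the same way in both libraries, and the comparison with macrophages was added after the data were seen. Stromal cells held at least 1.5% stromal UMIs and under 0.3% C1q UMIs. No doublet caller was run: the ceilings of the rule on T, B, stromal and C1q transcripts stood in its place, with 1 stricter alternative. That alternative, named here as possible doublets left out, allowed at most 1 UMI over the marker lists of several other cell types. Endothelial and dendritic cells were among these types, and the deepest barcodes were dropped as well. It kept 3948 of 7344 NCD and 3770 of 6786 HFD quality-filtered barcodes, so it gives no count of doublets. Thinning used a fixed seed. The ratio code was tested on synthetic counts. Coordinates come from GENCODE vM21 and promoters from RefSeq. Python 3.11.15, numpy 2.4.6, scipy 1.17.1, pandas 2.3.3 and matplotlib 3.10.9 were used.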

Additional observations from a re-analysis of the deposited data

How the results depend on the processing

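The log2 ratio of the HFD to NCD share was −0.31 for the rule as given, −1.09 when a UMI of Ace or Treml4 was needed (37 NCD and 16 HFD cells) and −1.69 for cells with 3 or more of the 9 genes. The log2 ratio of cells per classical monocyte was 1.43, and 3.28 when possible doublets were left out, which kept 26 NCD and 23 HFD cells and 1 HFD classical cell. Without possible doublets 19 of the 24 named genes were no longer called. That filter also uses the endothelial list, so the loss of the calls of Cldn5 and Gpihbp1 follows from it. Called genes between diets numbered 130 higher and 190 lower. The higher count was 222 with free RNA subtracted, 73 at a filter of 100 CPM and 238 with no filter. The lower count was 96 after thinning, 71 with a UMI of Ace or Treml4 needed, 81 without possible doublets, 56 in marker-bearing cells, 106 without cells rich in stromal or endothelial markers, 83 at 100 CPM and 409 with no filter. Against NCD classical monocytes the higher count of 164 was 56 after thinning, 107 at a stromal ceiling of 0.5%, 98 without possible doublets, 79 without stromal- or endothelial-rich cells and 85 at 100 CPM, and the lower count of 166 was 87 after thinning. Against HFD classical monocytes the higher count of 39 was 12 after thinning, 15 without possible doublets, 76 with free RNA subtracted and 89 when centred. The lower count of 115 was 76 after thinning, 66 without possible doublets, 75 in marker-bearing cells, 230 with free RNA subtracted and 70 when centred on the median ratio. After thinning Prdx1 turned to a log2 ratio of −0.72 and Ccl2 to 1.60, and Fabp4 turned to 0.16 without possible doublets; the cause was not tested. Of the list medians, 10 of 20 changed sign when a UMI of Ace or Treml4 was needed, 6 of 20 after thinning, 5 of 19 without possible doublets and 6 of 21 in marker-bearing cells, and the lysosome and lipid handling medians were in none of these. The settings of 3 of 9 genes and of stromal- or endothelial-rich cells were chosen after seeing the data. No paired analysis was possible because there is 1 library per diet. Few cells limit depth: 5 HFD classical cells and 8 HFD marker-bearing cells.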
